A study of Mus musculus with 6 samples.

Results

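The genes described here are 32 markers of macrophages, Langerhans cells and other leukocytes, measured by RNA-seq in sorted hair follicle stem cells (HFSC), the epithelial cells that renew the hair. They were chosen by symbol, and all 32 are among the 23377 genes of the count table. The knockout libraries were labelled Ring1a/b-/- (RingKO, 2 libraries) and the controls wild type (WT, 2 libraries), both from C57BL/6 hair follicle. The deleted genes encode the ubiquitin ligases Ring1a and Ring1b, either of which gives Polycomb repressive complex 1 its activity on histone H2A. Per the labels, each library was made from 3000 cells sorted by flow cytometry, by SMART-seq2, which copies polyadenylated RNA over its full length and amplifies it by PCR. The promoter that drove the deletion, the age of the mice, the time since deletion, any gate against CD45 in the RNA sort and whether separate mice were used are not stated in those labels. The p-values below therefore reflect the spread between 4 libraries, which may be technical.

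Skin holds several leukocyte populations. Macrophages of the dermis and around the follicle take up debris and secrete complement C1q, and they depend on the receptor Csf1r. Langerhans cells live inside the epidermis and upper follicle, carry the lectin langerin (Cd207) and present antigen on MHC class II. T cells, mast cells and neutrophils are found there too, each with its own lineage genes. None of these genes is a usual marker of the follicle's stem cells. Bulk libraries do not show which cells the RNA came from, and they cannot tell more leukocytes from more RNA per leukocyte.

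The RingKO libraries held 4844381 and 7740945 counts and the WT libraries 2785843 and 3056593. A limit of 3 counts corresponded to 0.606 and 0.373 CPM (counts scaled to the size of the library) in RingKO and to 1.14 and 1.00 CPM in WT, and covers counting error only. Ring1, which encodes Ring1a, had 15.5 and 18.4 CPM in RingKO and 31.9 and 29.4 CPM in WT, and Rnf2, which encodes Ring1b, had 151 and 153 CPM in RingKO and 144 and 87.8 CPM in WT. Neither passed the edgeR test (adjusted p = 0.551 for Ring1 and 0.532 for Rnf2), and whole-gene counts do not check a deletion of some exons, so the RingKO label rests on the submitters' word. Of the epithelial label's markers, 12 keratinocyte genes, Krt5 and Krt14 among them, were read in every library and summed to 3681 and 3258 CPM in RingKO and 4418 and 4117 CPM in WT. The low-count filter of edgeR kept 13134 genes, of which 7 were higher and 1 was lower in RingKO at an adjusted p under 0.05.

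RNA of these genes was present in all 4 libraries and was most abundant in 1 RingKO library. The 32 genes summed to 2016 CPM in RingKO replicate 1 and 971 CPM in RingKO replicate 2, against 655 CPM in WT replicate 1 and 520 CPM in WT replicate 2. The mean was 1493 ± 739 CPM in RingKO and 588 ± 95.5 CPM in WT (SD, n = 2 each), a 2.54-fold ratio of the means. Against the WT mean, RingKO replicate 1 alone gave a ratio of 3.43 and RingKO replicate 2 alone a ratio of 1.65. These sums and ratios include Ctsc, the most abundant member in each library and one that many cell types make. Ctsc had 179 and 201 CPM in RingKO and 296 and 199 CPM in WT.

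Of the 32 genes, 27 were tested, and the other 5 (Itgax, Cd207, Cd52, Cd3e and Cd3g) stayed under the count filter. Among the 27, 2 rose in RingKO at an adjusted p under 0.05 over all genes tested, none fell, and 25 did not pass (edgeR, quasi-likelihood, Benjamini-Hochberg). Over all genes tested, 0.0533% were called higher and 0.00761% lower. At an unadjusted p under 0.05, 13 members were higher and 0 lower, where 8.47% of all tested genes were higher and 8.16% lower. Both RingKO libraries lay above both WT libraries for 15 of the 27 and below them for 0, against 24.8% and 22.3% of all genes tested. The median log2 fold change of RingKO over WT was 1.84 for the 27, and 0.03 for all genes tested. A log2 fold change above 0 was found for 25 of the 27 and for 52.3% of all genes tested, and one above 2 for 12 of the 27 and for 6.65% of all genes tested. Of the 27, 2 met the filter's minimum of 2.53 CPM in both RingKO libraries and not in both WT libraries, so that they entered the test through the RingKO libraries. Of the others, 23 met it in both WT libraries. Without RingKO replicate 1 the median log2 fold change was 1.04, and without RingKO replicate 2 it was 2.44. Without WT replicate 1 it was 2.20, and without WT replicate 2 it was 1.99. Each of these fits left 1 library in a genotype, so only effect sizes are given for them.

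**Figure D1:**
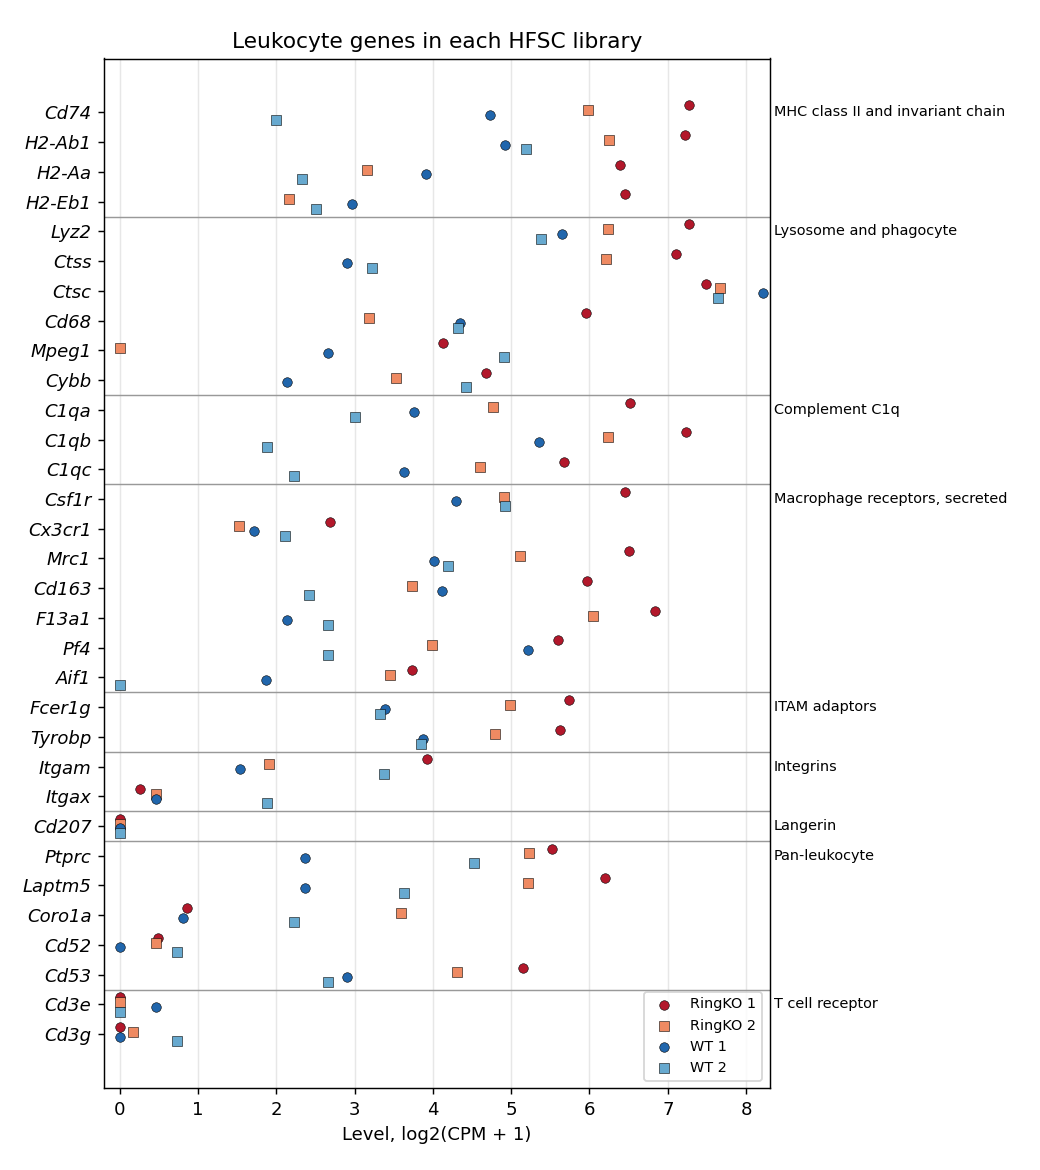
Level of each of the 32 leukocyte genes as log2(CPM + 1) on the x axis, 1 point per library, with genes grouped by role down the page (RingKO red and orange, WT dark and light blue). Cd207 lies at 0 in all 4 libraries, F13a1 and Ctss have both RingKO points far right of both WT points, and Mpeg1 and Coro1a are split within a genotype.

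F13a1 and Ctss were the members that rose. F13a1, the enzyme subunit of clotting factor XIII and a gene of resident macrophages, had 113 and 65.1 CPM in RingKO and 3.42 and 5.34 CPM in WT. The lower RingKO library was thus far above the higher WT one, and the fitted change was 20.1-fold (log2 fold change 4.33 ± 0.53, SE; edgeR adjusted p = 0.0444). Ctss, the lysosomal protease cathepsin S that trims the invariant chain of MHC class II, had 137 and 73.3 CPM in RingKO and 6.46 and 8.34 CPM in WT. Its groups did not overlap either, and the change was 14.1-fold (log2 fold change 3.82 ± 0.47; edgeR adjusted p = 0.0444). A fit without a RingKO library leaves 1 in that genotype, so it cannot show whether either call rested on both RingKO libraries. The log2 fold changes without a library ran from 3.88 to 4.67 for F13a1 and from 3.30 to 4.18 for Ctss. Over the alternative settings that kept every library, the edgeR, DESeq2 or limma adjusted p ran from 2.82e-14 to 0.211 for F13a1 and from 6.29e-14 to 0.204 for Ctss.

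The promoters of these members are shown because PU.1, the myeloid master factor encoded by Spi1, binds a purine-rich site in many macrophage promoters. The letters GAGGAAGT were searched on both strands of RefSeq windows on GRCm38.p6, from 250 bases before to 50 after each gene's start. They occur in 3.20% of 32851 windows, and in 6 of the 29 windows (26 genes) that matched the module, those of Ctss, F13a1, C1qc, Cd53, Ctsc and Pf4. The shorter GAGGAAG, which every GAGGAAGT contains, occurs in 13.6% of all windows and in 11 of the 29. These spellings were kept from a wider set tried on the same windows, and a match is a description of the letters, not a bound site. F13a1 has 2 windows, of which 1 holds the letters. Capitals mark the match, in Ctss as its reverse complement ACTTCCTC. The windows lie at chr3:95526536-95526835 on the plus strand (Ctss) and chr13:37049164-37049463 on the minus strand (F13a1), and each spans the promoter and the start of its gene.
Ctss: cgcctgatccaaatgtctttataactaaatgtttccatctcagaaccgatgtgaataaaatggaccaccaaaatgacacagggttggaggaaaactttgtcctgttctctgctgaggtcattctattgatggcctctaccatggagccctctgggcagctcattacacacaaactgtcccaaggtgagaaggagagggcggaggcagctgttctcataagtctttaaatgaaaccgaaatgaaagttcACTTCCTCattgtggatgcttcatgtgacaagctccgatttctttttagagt
F13a1: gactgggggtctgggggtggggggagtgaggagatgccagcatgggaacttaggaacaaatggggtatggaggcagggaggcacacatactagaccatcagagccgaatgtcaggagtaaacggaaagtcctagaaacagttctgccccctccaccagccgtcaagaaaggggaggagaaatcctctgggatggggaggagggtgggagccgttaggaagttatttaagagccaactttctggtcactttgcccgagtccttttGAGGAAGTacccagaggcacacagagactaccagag
The match lies 2 bases before the start of Ctss, counted at its first base, and begins at base 15 after the start of F13a1. Ctsc has the letters too, and its values are among the lysosomal genes below.

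The 4 genes of MHC class II presentation separated into pairs. The sum of Cd74, H2-Ab1, H2-Aa and H2-Eb1 was 470 and 149 CPM in RingKO and 75.6 and 47.0 CPM in WT. Cd74, the invariant chain that guides class II molecules to the endosome, had 153 and 62.2 CPM in RingKO and 25.4 and 3.00 CPM in WT (log2 fold change 2.93 ± 0.81; edgeR adjusted p = 0.152). H2-Ab1, a class II beta chain, had 148 and 75.2 CPM in RingKO and 29.2 and 35.4 CPM in WT (1.78 ± 0.39; edgeR adjusted p = 0.147). For both genes the groups did not overlap, but neither passed. H2-Aa, the alpha chain that pairs with H2-Ab1, had 82.8 and 7.97 CPM in RingKO and 14.05 and 4.00 CPM in WT. H2-Eb1, the beta chain of the other class II molecule, had 86.6 and 3.49 CPM in RingKO and 6.84 and 4.67 CPM in WT. These genes were high in RingKO replicate 1 only, with replicate 2 inside the WT range for H2-Aa and below it for H2-Eb1. In raw counts, H2-Eb1 had 429 and 28 in RingKO, and 18 and 14 in WT. Counts after PCR do not give the number of RNA molecules, and the cause of the split between the RingKO libraries was not tested. Without RingKO replicate 1 the log2 fold change was -0.18 for H2-Aa and -0.72 for H2-Eb1, against 2.33 and 2.96 with all libraries.

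Class II promoters share a set of boxes read by a common enhanceosome, of which the Y box, bound by NF-Y, is the easiest to recognise by its letters. CTGATTGG, searched on both strands, occurs in 4.10% of the same 32851 windows and in 2 of the module's 29, H2-Aa and H2-Eb1. They are shown because these 2 genes had the same unequal levels in the RingKO libraries. The H2-Aa window is chr17:34287774-34288073 on the minus strand and the H2-Eb1 window chr17:34305617-34305916 on the plus strand, both on GRCm38.p6, with the Y box in capitals.
H2-Aa: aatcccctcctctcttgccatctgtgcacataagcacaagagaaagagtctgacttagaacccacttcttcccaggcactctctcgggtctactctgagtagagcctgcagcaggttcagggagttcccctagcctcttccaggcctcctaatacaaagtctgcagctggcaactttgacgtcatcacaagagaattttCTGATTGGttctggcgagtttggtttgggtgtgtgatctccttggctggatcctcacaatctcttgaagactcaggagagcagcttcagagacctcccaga
H2-Eb1: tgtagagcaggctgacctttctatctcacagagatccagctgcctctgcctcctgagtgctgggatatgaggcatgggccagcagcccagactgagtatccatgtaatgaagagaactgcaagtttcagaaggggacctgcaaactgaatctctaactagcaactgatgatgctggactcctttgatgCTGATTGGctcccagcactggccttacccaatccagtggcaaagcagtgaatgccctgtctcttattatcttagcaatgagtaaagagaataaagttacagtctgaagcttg
The box starts 51 bases before the start of H2-Aa and 62 before that of H2-Eb1. Cd74, H2-Ab1, C1qa, Csf1r, Tyrobp and Cd52 were not matched to a window, so their promoters were not searched for any motif.

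**Figure D2:**
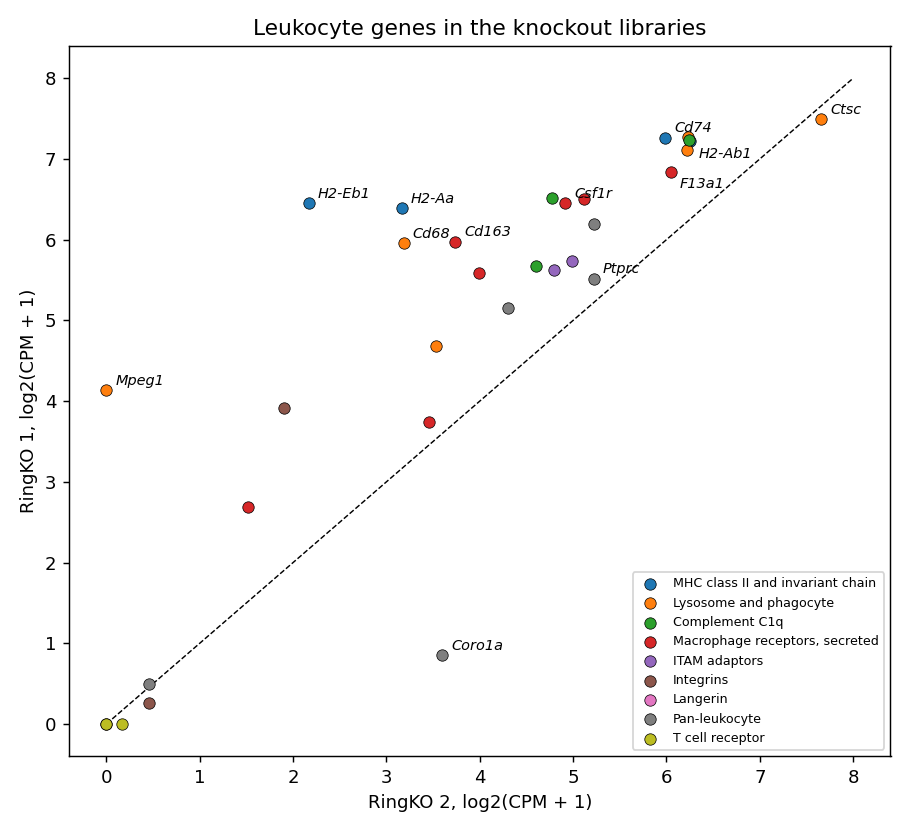
Each point is 1 of the 32 leukocyte genes, with log2(CPM + 1) in RingKO replicate 2 on the x axis and in RingKO replicate 1 on the y axis. The dashed line marks equal levels and colours give the role. Of the 27 tested genes 25 lie above the line, with H2-Eb1, H2-Aa, Cd68 and Mpeg1 far above it and Coro1a far below it.

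The RingKO libraries differed from each other across the module. Replicate 1 was above replicate 2 in 25 of the 27 tested members, against 52.7% of all tested genes, and at least 2-fold above it in 16, against 9.85%. Ctsc and Coro1a were the exceptions. Replicate 1 was above both WT libraries in 24 of the 27, and replicate 2 in 16, against 37.5% and 37.3% of all tested genes. The median ratio of replicate 1 over replicate 2 was 2.11 over the members with a count in both. In WT, replicate 1 was above replicate 2 in 15 of the 27, against 48.7% of all tested genes.

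The C1q chains, which form the recognition part of the first complement component and are made in skin mainly by macrophages, lay above both WT libraries in both RingKO libraries. C1qa had 90.7 and 26.3 CPM in RingKO and 12.5 and 7.01 CPM in WT (log2 fold change 2.58 ± 0.71; edgeR adjusted p = 0.152). C1qb had 150 and 74.4 CPM in RingKO and 39.9 and 2.67 CPM in WT (2.41 ± 1.01; edgeR adjusted p = 0.309). C1qc had 50.1 and 23.3 CPM in RingKO and 11.4 and 3.67 CPM in WT, with a log2 fold change of 2.28 ± 0.81. None of the 3 passed. WT replicate 2 was the low one for each, and the log2 fold change of C1qb was 1.46 without WT replicate 2 and 5.38 without WT replicate 1.

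Receptors and secreted products of macrophages gave a mixed picture beside F13a1. The 7 genes of this group summed to 416 and 167 CPM in RingKO and 94.5 and 65.1 CPM in WT. Csf1r, the receptor for the growth factors Csf1 and Il34, had 86.4 and 29.1 CPM in RingKO and 18.6 and 29.4 CPM in WT (log2 fold change 1.26 ± 0.59; edgeR adjusted p = 0.334). Its groups overlapped, and without RingKO replicate 1 the log2 fold change was 0.28. Mrc1, the mannose receptor, had 89.4 and 33.6 CPM in RingKO and 15.2 and 17.4 CPM in WT (1.91 ± 0.57; edgeR adjusted p = 0.165), with no overlap. Cd163, the haemoglobin scavenger receptor of resident macrophages, had 61.8 and 12.3 CPM in RingKO and 16.3 and 4.34 CPM in WT. Its groups overlapped, as did those of Pf4 and Cx3cr1. Pf4, a chemokine of platelets that tissue macrophages also transcribe, had 47.2 and 14.9 CPM in RingKO and 36.1 and 5.34 CPM in WT. Cx3cr1, the fractalkine receptor, was low throughout, at 5.45 and 1.87 CPM in RingKO and 2.28 and 3.34 CPM in WT. Aif1, the actin-bundling protein Iba1, had 12.3 and 9.96 CPM in RingKO, against 2.66 CPM in WT replicate 1 and 0 counts in WT replicate 2, which allows up to 1.00 CPM.

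Lysosomal and phagocyte genes did not move as a block. Lyz2, the lysozyme of macrophages and neutrophils, had 153 and 74.2 CPM in RingKO and 49.4 and 40.7 CPM in WT (log2 fold change 1.34 ± 0.38; edgeR adjusted p = 0.158), with no overlap. Ctsc, cathepsin C, a protease that many cell types make, had 179 and 201 CPM in RingKO and 296 and 199 CPM in WT (-0.38 ± 0.23; edgeR adjusted p = 0.464). The first RingKO value of Ctsc lay below both WT values and the other between them. Cd68, a lysosomal glycoprotein of phagocytes, had 61.2 and 8.09 CPM in RingKO and 19.36 and 19.02 CPM in WT, so that RingKO replicate 2 lay under both WT libraries. Mpeg1, the pore-forming perforin-2 of macrophages, had 16.6 and 0 CPM in RingKO and 5.32 and 29.0 CPM in WT. Its 0 counts in RingKO replicate 2, the deepest library, allow up to 0.373 CPM. Cybb, the catalytic subunit of the phagocyte oxidase, had 24.6 and 10.6 CPM in RingKO and 3.42 and 20.4 CPM in WT. For Cd68, Mpeg1 and Cybb the groups overlapped and the spread within a genotype exceeded the difference of the means.

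**Figure D3:**
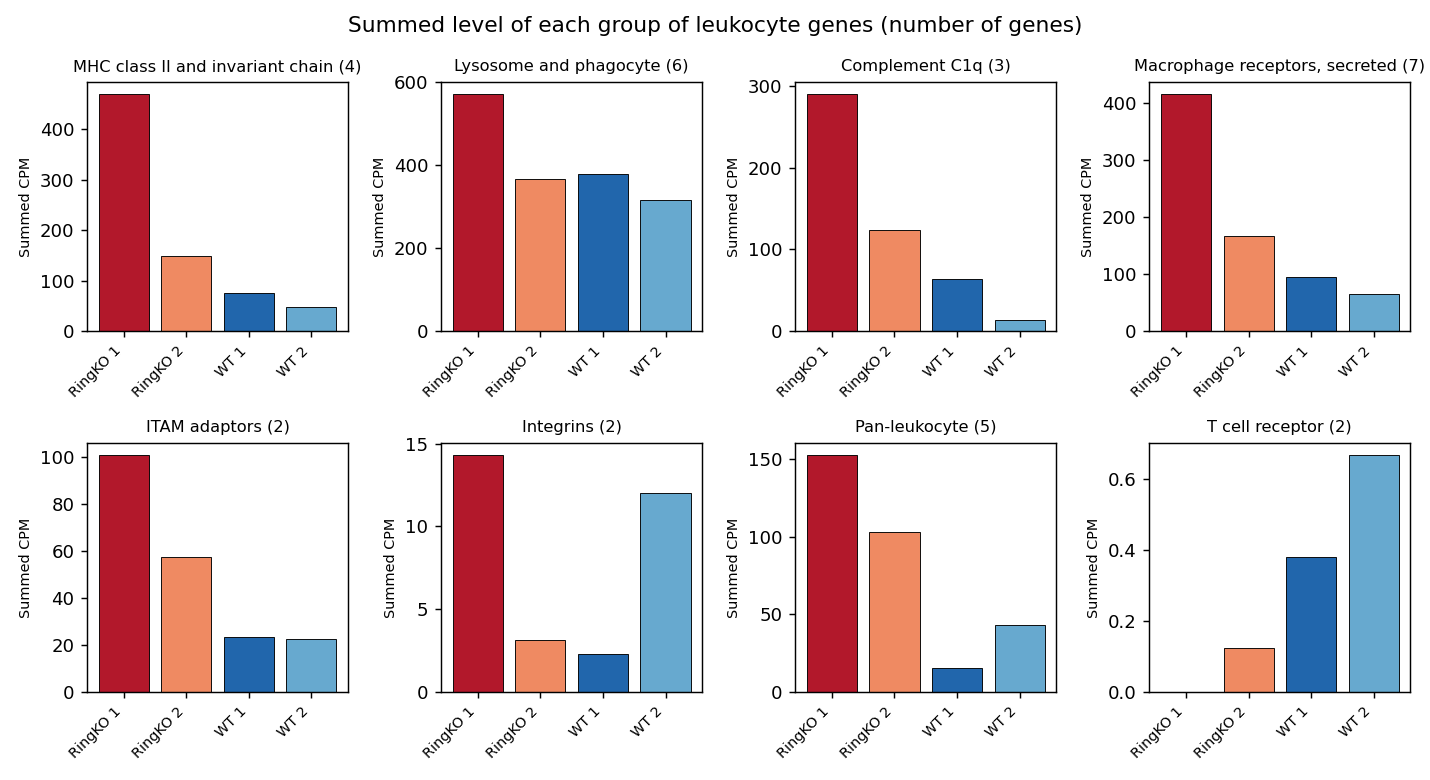
Summed CPM on the y axis of each role group in every library (bars; number of genes in brackets), RingKO left of WT, with a y axis of its own in each panel. The C1q, ITAM adaptor, class II, macrophage receptor and pan-leukocyte sums are higher in both RingKO libraries than in both WT libraries. The lysosome and phagocyte sum of RingKO replicate 2 (367 CPM) lies between the WT sums (380 and 317 CPM). Ctsc alone holds 201 CPM of that RingKO replicate 2 sum, and 296 and 199 CPM of the WT sums.

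The signalling adaptors and shared leukocyte genes lay mostly higher in RingKO without passing. Fcer1g, the gamma chain of Fc receptors, had 52.3 and 30.6 CPM in RingKO and 9.49 and 9.01 CPM in WT (log2 fold change 2.16 ± 0.63; edgeR adjusted p = 0.161). Tyrobp, the adaptor DAP12 of Trem2 and related receptors, had 48.5 and 26.8 CPM in RingKO and 13.7 and 13.4 CPM in WT (1.47 ± 0.62; edgeR adjusted p = 0.283). For both adaptors the groups did not overlap. Ptprc, the pan-leukocyte phosphatase CD45, had 44.8 and 36.4 CPM in RingKO and 4.18 and 22.0 CPM in WT (3.08-fold; edgeR adjusted p = 0.351). Laptm5, a lysosomal membrane protein of blood cells, had 72.3 and 36.2 CPM in RingKO and 4.18 and 11.4 CPM in WT (2.79 ± 0.69; edgeR adjusted p = 0.149). Cd53, a leukocyte tetraspanin, had 34.5 and 18.8 CPM in RingKO and 6.46 and 5.34 CPM in WT. In these 3 genes too, both RingKO values were above both WT values. Coro1a, the leukocyte coronin, had 0.808 and 11.1 CPM in RingKO and 0.759 and 3.67 CPM in WT, and was low in replicate 1 of each genotype. Cd52, a surface glycoprotein of lymphocytes, had 2 and 3 counts in RingKO and 0 and 2 in WT. Itgam, the integrin CD11b of macrophages and neutrophils, had 14.1 and 2.74 CPM in RingKO and 1.90 and 9.34 CPM in WT (log2 fold change 0.57 ± 1.30; edgeR adjusted p = 0.904), and its groups overlap.

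**Figure D4:**
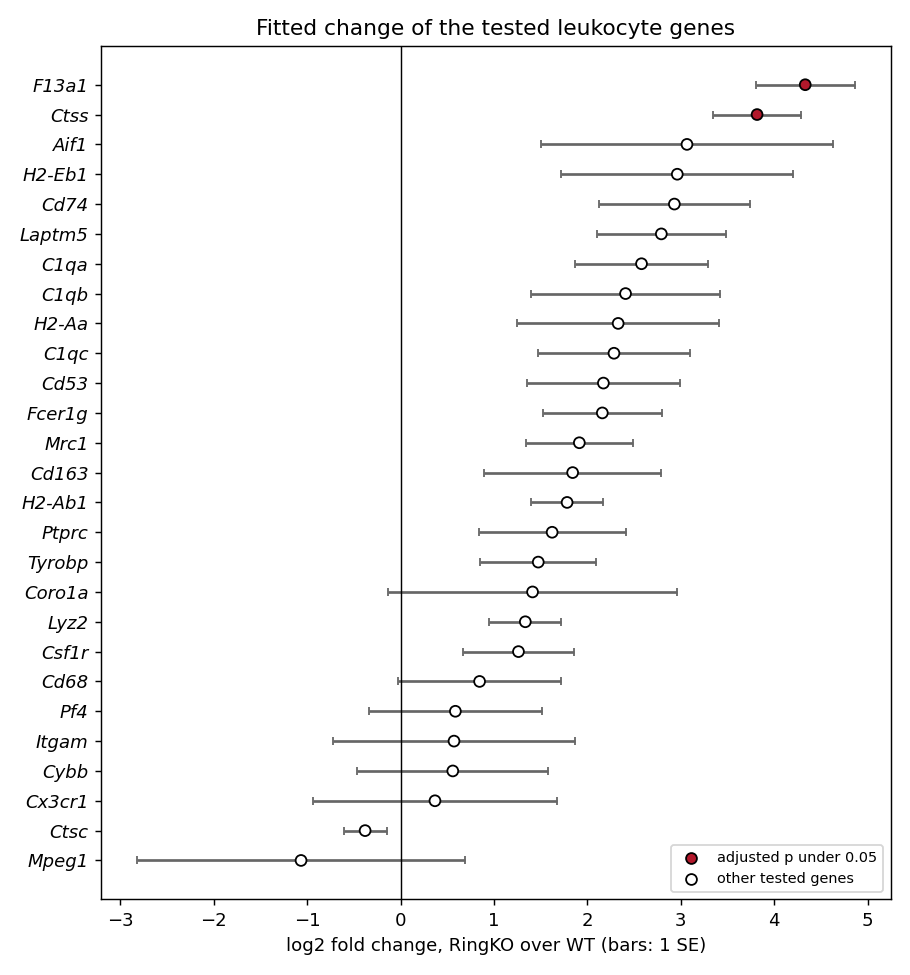
Fitted log2 fold change of RingKO over WT on the x axis for the 27 tested leukocyte genes (points; bars are 1 SE), ordered by size; filled points are those with an adjusted p under 0.05. F13a1 (4.33) and Ctss (3.82) are filled, 23 further genes lie above 0, and Ctsc and Mpeg1 lie below 0.

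The members for langerin and CD11c and the CD3 chains Cd3e and Cd3g were at or near 0. Cd207, langerin, had 0 counts in all 4 libraries, which allows up to 0.606 and 0.373 CPM in RingKO and 1.14 and 1.00 CPM in WT. Itgax, the integrin CD11c of dendritic and Langerhans cells, had 1 and 3 counts in RingKO and 1 and 8 counts in WT. Cd3e and Cd3g, chains of the T cell receptor complex, had 0 and 0 counts and 0 and 1 counts in RingKO, and 1 and 0 counts and 0 and 2 counts in WT. None of these genes held enough counts for a test. Other genes listed for Langerhans cells, Epcam and Cd24a, are expressed by follicle epithelium as well, and had 147 and 130 CPM (Epcam) and 255 and 231 CPM (Cd24a) in RingKO, against 180 and 217 CPM and 375 and 314 CPM in WT. Runx3, a transcription factor of Langerhans cells and lymphocytes, had 28.9 and 23.4 CPM in RingKO and 1.14 and 2.34 CPM in WT (log2 fold change 3.88 ± 0.97; edgeR adjusted p = 0.149). Runx3 was under the filter's minimum of 2.53 CPM in both WT libraries, so it entered the test through the RingKO libraries. Mfge8, a secreted protein that bridges phagocytes to dying cells, had 92.7 and 107 CPM in RingKO and 52.0 and 34.7 CPM in WT (1.21 ± 0.32; edgeR adjusted p = 0.149). Both lay higher in both RingKO libraries, whereas Epcam and Cd24a lay lower in both. Of that list's 15 genes, 11 were tested and 0 passed in edgeR (4 higher and 2 lower unadjusted; 3 and 2 by DESeq2).

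Lists of leukocyte types were set beside the module. Of the 20 macrophage genes 18 were tested, 1 rose (F13a1), 0 fell and 17 did not pass, with a median log2 fold change of 1.65 (7 higher and 1 lower unadjusted). The list's genes of highest mean CPM, the transcription factor Maf and the receptor Mertk, are not limited to macrophages and had 136 and 162 CPM and 103 and 89.4 CPM in RingKO, against 168 and 256 CPM and 128 and 155 CPM in WT. Adgre1, the macrophage antigen F4/80, listed under its older symbol Emr1, had 32.5 and 30.0 CPM in RingKO and 6.08 and 4.34 CPM in WT (2.58 ± 0.76; edgeR adjusted p = 0.160). Adgre1 was named after its values were seen. Its RingKO libraries were nearly level, unlike those of the C1q chains.

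**Figure D5:**
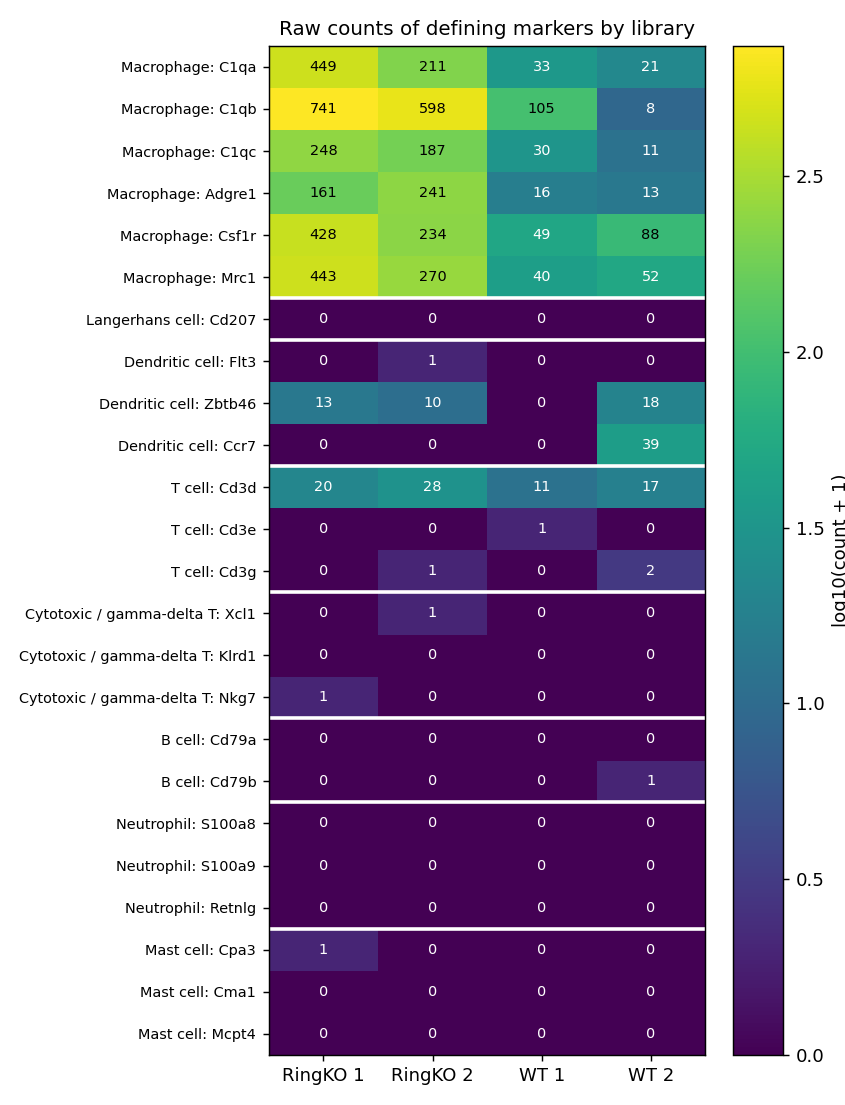
Raw counts (numbers in the cells; colour is log10(count + 1)) of defining markers of 8 leukocyte types in the 4 libraries, RingKO left of WT. These markers are a selection from each list. The macrophage rows hold 161 to 741 counts in RingKO and 8 to 105 in WT. Cd207 and the markers shown for B cells, neutrophils and mast cells hold at most 1 count anywhere. Listed macrophage genes not shown include Maf and Mertk, lower in both RingKO libraries, and Lyve1, with 0 counts in both. The neutrophil-list gene Cxcr2, with 179 and 190 counts in RingKO and 83 and 103 in WT, is not shown either.

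The first markers of B cells, neutrophils and mast cells were at or near 0, while other genes of those lists were read in every library. Among B cell genes, Cd79a had 0 counts in every library, Cd79b had 1 count in WT replicate 2, and Cd22 had 17 and 18 counts in RingKO and 10 and 9 in WT. The neutrophil genes S100a8, S100a9 and Retnlg were at 0 in all 4 libraries, as were Cma1 and Mcpt4 of mast cells, and Cpa3 had 1 count in RingKO replicate 1. Of T cell genes, Cd3d, a chain of the T cell receptor complex, was read in every library, at 4.04 and 3.49 CPM in RingKO and 4.18 and 5.67 CPM in WT. Lck and Thy1, of highest mean CPM, had 30.1 and 36.0 CPM and 16.96 and 34.4 CPM in RingKO, against 31.9 and 53.4 CPM and 32.3 and 33.4 CPM in WT. Of the 4 tested T cell genes 0 passed in edgeR, 0 were under an unadjusted p of 0.05 and 0 were called by DESeq2. For cytotoxic and gamma-delta T cells Xcl1, Klrd1 and Nkg7 had at most 1 count per library, and the Tcrg and Trdc genes were not analysed here. Genes of these lists that other cells also use were present, such as Kit, which melanocytes carry too, at 117 and 87.0 CPM in RingKO and 127 and 109 CPM in WT. Gata2, a factor of mast and stem cells, had 10.5 and 17.1 CPM in RingKO and 0 counts in both WT libraries, and Cxcr2, a neutrophil chemokine receptor, had 36.1 and 23.6 CPM in RingKO and 31.5 and 34.4 CPM in WT. Csf3r, the receptor for the neutrophil growth factor G-CSF, had 6.66 and 4.98 CPM in RingKO and 3.42 and 7.68 CPM in WT. In edgeR 0 of 1 tested B cell gene, 0 of 2 neutrophil genes and 0 of 2 mast cell genes passed, and Gata2 alone was under an unadjusted p of 0.05 in edgeR, with 1 mast cell gene called higher by DESeq2. Gata2, with 0 counts in both WT libraries, entered the edgeR test through the RingKO libraries. Of platelet genes 0 of 3 tested passed and of red cell genes 0 of 1, with 0 unadjusted and 0 by DESeq2. The haemoglobin genes Hbb-b1 and Hba-a1 had at most 2 counts per library, and the platelet genes Ppbp and Gp9 at most 1, while Pf4 was present as given above. Itga2b, the platelet integrin CD41, had 15.3 and 16.8 CPM in RingKO and 16.7 and 5.34 CPM in WT, and Alas2, the haem synthesis enzyme of red cells, had 22.8 and 6.85 CPM in RingKO and 1.14 and 17.7 CPM in WT, which overlap.

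The 15 dendritic cell genes summed to 187 and 243 CPM in RingKO and 84.3 and 54.4 CPM in WT. Most of the RingKO sums came from Fscn1 and Clec10a, given below, neither of which is limited to dendritic cells. Of the 9 tested, 5 lay higher in both RingKO libraries and 0 lower in both, against 24.8% and 22.3% of all genes tested. Of these 5, Batf3, Itgae and Clec10a met the filter's minimum of 2.53 CPM in both RingKO libraries and not in both WT libraries. They entered the test through the RingKO libraries, so their place above WT was partly set by the filter. Flt3, the cytokine receptor of dendritic cell precursors, had 0 and 1 counts in RingKO and 0 and 0 in WT. Zbtb46 had 13 and 10 counts in RingKO and 0 and 18 in WT, and Ccr7 had 39 counts in WT replicate 2 and 0 elsewhere. Of the 9 tested genes of this list 0 passed in edgeR (3 higher and 0 lower unadjusted; 3 and 1 by DESeq2). Batf3, a transcription factor of cross-presenting dendritic cells, had 29 and 70 counts in RingKO and 0 and 1 in WT (unadjusted p = 0.0147 and adjusted p = 0.186 in edgeR). Itgae, the integrin CD103, had 4.85 and 9.83 CPM in RingKO and 2.66 and 1.00 CPM in WT. Xcr1, the receptor for Xcl1, had 5.25 and 4.86 CPM in RingKO and 3.42 and 4.34 CPM in WT. The 2 of highest mean CPM were Fscn1, an actin-bundling protein also made outside leukocytes, with 81.2 and 141 CPM in RingKO and 42.1 and 23.4 CPM in WT, and Clec10a, a lectin of dermal macrophages and dendritic cells. Clec10a had 61.0 and 57.4 CPM in RingKO and 6.83 and 1.00 CPM in WT (log2 fold change 3.93 ± 0.82; edgeR adjusted p = 0.147), with nearly equal RingKO libraries.

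Genes that work with the members were followed by list. In the class II pathway, 12 of 17 genes were tested, 1 rose (Ctss), 0 fell and 11 did not pass. Those of highest mean CPM were the lysosomal protease Lgmn, at 133 and 108 CPM in RingKO and 77.8 and 49.1 CPM in WT, and the thiol reductase Ifi30, at 82.6 and 58.5 CPM in RingKO and 63.4 and 107 CPM in WT. Ciita, the class II transactivator, had 2.22 and 2.24 CPM in RingKO and 0.380 and 2.67 CPM in WT, which overlap. Among Fc receptor and Tyrobp signalling genes 0 of 10 tested passed in edgeR (5 higher unadjusted; 3 by DESeq2), with Sirpa at 110 and 73.8 CPM in RingKO and 59.99 and 116 CPM in WT, and Syk at 39.2 and 37.7 CPM in RingKO and 37.6 and 59.1 CPM in WT. Of the 6 phagocyte oxidase genes 0 passed in edgeR (1 higher unadjusted; 1 by DESeq2). Cyba, the partner of Cybb that is also made outside leukocytes, had 78.9 and 55.9 CPM in RingKO and 14.8 and 9.01 CPM in WT (2.50 ± 0.50; edgeR adjusted p = 0.129), whereas the groups of Cybb overlapped. The pan-leukocyte list of 20 genes had 17 tested and 0 passing in edgeR (2 higher unadjusted; 2 by DESeq2), with a median log2 fold change of 0.53. Its 15 genes outside the module summed to 169 and 108 CPM in RingKO and 68.7 and 152 CPM in WT, which overlap.

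MHC class I genes, which nearly all cells use, gave 0 of 12 passing in edgeR (1 higher unadjusted; 1 by DESeq2), with B2m at 164 and 128 CPM in RingKO and 166 and 155 CPM in WT, and H2-K1 at 177 and 154 CPM in RingKO and 122 and 124 CPM in WT. Ligands and chemokines that act on leukocytes gave 0 of 10 passing in edgeR (1 lower unadjusted; 0 by DESeq2). Cxcl14, a chemokine of skin epithelium, had 359 and 264 CPM in RingKO and 572 and 381 CPM in WT, and Cxcl12 had 100 and 93.7 CPM in RingKO and 106 and 104 CPM in WT. Csf1, a ligand of Csf1r, had 14.7 and 12.6 CPM in RingKO and 6.83 and 17.7 CPM in WT, which overlap.

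Markers of other skin cells were read in the same libraries. Fibroblast genes, 10 in number, summed to 346 and 265 CPM in RingKO and 662 and 826 CPM in WT, lower in both RingKO libraries. Dcn was the largest part of these sums, at 272 and 159 CPM in RingKO and 593 and 430 CPM in WT. Of the 8 tested fibroblast genes, 2 (Pdgfra and Pdgfrb) lay higher in both RingKO libraries and 2 lower in both. Over all genes tested the shares were 24.8% and 22.3%. Pdgfra and Pdgfrb met the filter's minimum in both RingKO libraries and not in both WT libraries. Of the lower genes, Mfap5 met it in the WT libraries only. Endothelial genes summed to 79.3 and 49.7 CPM in RingKO and 75.9 and 121 CPM in WT. Pecam1 and Cdh5 had at most 2 counts outside WT replicate 2, where they had 35 and 27. Melanocyte genes summed to 187 and 133 CPM in RingKO and 194 and 197 CPM in WT, and Schwann cell genes to 28.1 and 48.2 CPM in RingKO and 18.6 and 34.4 CPM in WT. In edgeR 0 genes of these 4 lists or of the keratinocyte list passed. Unadjusted, 1 fibroblast and 2 keratinocyte genes were higher, and 4 fibroblast, 3 keratinocyte and 1 melanocyte genes lower. DESeq2 called 1 keratinocyte gene higher, and 2 fibroblast, 3 keratinocyte, 1 endothelial and 1 melanocyte genes lower. The part of these other cells in the result for the module was not tested.

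The number of members called depended on the tool and on the cut-off. In the authors' deposited table, 12 of the 27 members with an adjusted p were marked higher in RingKO and 0 lower, where 7.35% of all genes with an adjusted p were marked higher. Over all genes, 1066 were marked higher there and 187 lower. In the authors' deposited table the adjusted p of 2 marked members lay above 0.05, at 0.0536 for H2-Eb1 and 0.052 for Tyrobp. The marked members were H2-Ab1, H2-Eb1, Lyz2, Ctss, C1qa, C1qc, Mrc1, F13a1, Fcer1g, Tyrobp, Laptm5 and Cd53. The log2 fold change in the authors' deposited table was 4.33 for F13a1, 3.82 for Ctss and 2.96 for H2-Eb1. DESeq2, run on the same counts, called 10 members higher and 0 lower at an adjusted p under 0.05. Of the 14502 genes it gave an adjusted p, it called 1792 in either direction, and 901 of them (6.21% of the 14502) higher. Its adjusted p was also 0.0536 for H2-Eb1 and 0.052 for Tyrobp, so the 12 and the 10 differ by the cut-off. These tables and edgeR's come from the same 4 libraries and are no independent check of each other.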

How the data were processed

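RNA-seq counts per gene symbol were deposited by the authors as whole numbers without normalization, 1 column per library, 2 RingKO and 2 WT. The submitters' processing notes name TopHat2 2.1.1, HTSeq 0.7.2, DESeq2 (given as version 3.7) and build mm9, with no settings. The annotation and strandedness are not stated there. The authors' deposited comparison table gives, per the file headers, log2 fold changes and p-values before and after adjustment. Ring1b peak lists were not used here.

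Counts were fitted in R 4.3.3 with edgeR 4.0.16 (filterByExpr defaults, TMM factors, robust quasi-likelihood fit, genotype as the only term), adjusted by Benjamini-Hochberg over all 13134 genes tested, and checked on simulated data. CPM are on TMM-scaled library sizes; SE was taken as the log2 fold change divided by the root of its F statistic. Alternatives used limma 3.58.1 voom, DESeq2 1.42.0, other filters and scaling, each library left out, replicate blocks and a trend on gene span and abundance. Gene spans and promoter windows are RefSeq's, GRCm38.p6; transcript lengths were not used, so CPM are not compared between genes as levels per length. Python 3.11.15 drew the figures. The number of libraries, 2 per genotype, limits precision.

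The members, the 22 further lists and the tests were chosen with earlier results of these data known. Every member was accounted for. Full statistics were given for members past the threshold and the most abundant of each role; from other lists, genes past the threshold or otherwise the 2 of highest mean CPM (left out for some lists far from the module, given by sums or counts), plus the leukocyte lists' first markers; other genes named were chosen after their values were seen. A few listed genes are not reported here.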

Additional observations from a re-analysis of the deposited data

How the results depend on the processing

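The count of members higher in RingKO was 2 with edgeR's defaults, 11 with no low-count filter (2.42% of all genes called higher), 0 when 1 CPM was required in 2 libraries (14 members at an unadjusted p under 0.05), 10 with DESeq2, 0 with limma-voom (8 unadjusted) and 0 with the trend on gene span and abundance removed (10 unadjusted). With each library left out it ran from 0 to 4, the median log2 fold change of tested members from 1.04 to 2.44, and the log2 ratio of the summed level from 0.72 to 1.76, the low ends being without RingKO replicate 1. No member was called lower by any of these fits. The deviations of same-numbered libraries from their genotype had a weak negative correlation across 13134 genes (Pearson -0.14). It cannot decide whether the numbers pair the samples, because spread within a genotype could hide a shared deviation. A replicate block called 7 members, and the crossed replicate block, chosen after seeing the data, called 2.

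Of the 27 tested members, 18 kept their direction under all 12 alternatives and 9 did not. The cause was not tested. Log2 fold changes with a library left out ran from -1.24 to 1.66 for Cd68, -1.43 to 2.93 for Coro1a, -0.58 to 0.93 for Cx3cr1, -0.21 to 2.33 for Cybb, -0.18 to 3.48 for H2-Aa, -0.72 to 3.89 for H2-Eb1, -1.03 to 2.104 for Itgam and -0.47 to 2.53 for Pf4. Mpeg1 ran from -9.29, fitted against 0 counts and no measure of size, to 0.59. Limma-voom gave -0.18 for Cd68 and -0.0224 for Cx3cr1, and the removed trend gave -0.48 for Cx3cr1, -0.0430 for Cybb and -0.24 for Itgam. At 2785843 to 7740945 counts per library, a gene with 0 counts can still stand at up to 1.14 CPM.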

Other observations

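Interferon-stimulated genes, a list set beside the module, followed RingKO replicate 2 rather than the replicate with the most RNA of the module's genes. Ifit3, an interferon-induced antiviral protein, had 2 and 381 counts in RingKO and 0 and 0 in WT. Iigp1, an interferon-inducible GTPase, had 2 and 263 counts in RingKO and 0 and 0 in WT, and Oas1a, a sensor of double-stranded RNA, had 1 and 109 counts in RingKO and 1 and 0 in WT. The 16 genes of the list summed to 142 and 470 CPM in RingKO and 120 and 203 CPM in WT, and 0 of the 8 tested passed edgeR's adjustment (1 higher at an unadjusted p under 0.05; 1 by DESeq2). The Fc receptors Fcgr1 and Fcgr4 had the same distribution, with 2 and 217 counts and 0 and 92 counts in RingKO, against 1 and 2 counts and 1 and 0 counts in WT. Fcgr2b, the inhibitory Fc receptor, had 274 and 207 counts in RingKO and 1 and 18 in WT, and so was high in both RingKO libraries. Irf7, an interferon regulatory factor, had 3 and 419 counts in RingKO and 85 and 103 in WT. The genes other than Irf7 were picked with their values known.

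Other myeloid genes outside the module differed in how they split the RingKO libraries. Ms4a7, a membrane protein of tissue macrophages, had 43.8 and 29.9 CPM in RingKO and 9.87 and 2.67 CPM in WT. Folr2, a folate receptor of resident macrophages, had 60.8 and 30.9 CPM in RingKO and 23.2 and 1.00 CPM in WT. Stab1, a scavenger receptor, had 67.03 and 7.72 CPM in RingKO and 5.70 and 21.4 CPM in WT. Lyve1, a receptor of some perivascular macrophages and of lymphatic vessels, had 0 and 0 counts in RingKO and 13 and 0 in WT. Spi1, which encodes PU.1, had 2.83 and 10.5 CPM in RingKO and 0.759 and 3.34 CPM in WT. The groups of Ms4a7 and Folr2 did not overlap and those of Stab1 and Spi1 did, and none of these 4 genes passed in edgeR (adjusted p = 0.181, 0.418, 0.547 and 0.625; Ms4a7 alone was under an unadjusted p of 0.05).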
